A study of Homo sapiens with 8 samples.

Results

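The genes described here are the protein-coding genes of human chromosome 19 whose symbol is ZNF followed by a number, as measured in nuclear RNA of HAP1, an established line with a near-haploid genome that derives from a human leukemia. Of 246 such genes in the annotation (GENCODE release 44, hg38), 184 had a locus of their own in the short-read gene table, and 152 of these reached 10 normalized counts in 3 or more short-read libraries and were taken as members. The whole table held 26066 genes that passed the same filter, among them 192 ZNF genes on other chromosomes. Of the remaining annotated genes, 32 were named but below the filter and 62 had no matching locus. Loci that were already in the reference were named by their Ensembl identifier (41 members), and assembled loci by the same-strand gene with which they shared the largest part of their span (111 members).

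HAP1 nuclei were separated into a chromatin fraction and a nucleoplasm fraction without any genetic change or treatment. Short reads of 50 bases covered both fractions in 3 libraries each, from 3 independent cultures. Long reads covered the chromatin fraction only, in 2 libraries. Short-read depth was 38895027 to 43804918 reads in chromatin and 75737601 to 79523938 in nucleoplasm. The fractions carried the directions of their titles at the 4 marker genes, with MALAT1 and PVT1 higher in chromatin (log2 fold change 3.09 and 3.11) and GAPDH and B2M higher in nucleoplasm (-2.35 and -2.11). Of 5 blood cell markers found in the table, GATA1, PTPRC and SPI1 were at 0 in every library, CD34 reached 3.60 normalized counts at most, and KIT lay between 1409 and 1867.

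C2H2 zinc finger genes form the largest family of human transcription factors, and much of the family lies on chromosome 19 in tandem arrays that arose by duplication. Many of the encoded proteins join an array of DNA-binding fingers to a KRAB domain, which recruits the corepressor TRIM28 and, through it, the histone methyltransferase SETDB1, and a large share of them bind transposable elements. The finger exons of neighbouring genes can be close in sequence, so a short read can match several genes.

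The sequence shared by the finger exons shows how close they are. The coding window of 50 bases, the length of a short read, that was held by most members is printed here in lower case on the coding strand. It lies in 11 members and at 27 places in hg38, and all 11 members belong to the array between 19.7 and 24.1 Mb. One copy is in the coding exon of ZNF91 at chr19:23359980-23360029 on the minus strand and another in ZNF254 at chr19:24127522-24127571 on the plus strand.
Shared window: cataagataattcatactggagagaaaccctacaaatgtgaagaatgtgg

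Such windows were few in most genes. The median member had 96.3% of its exonic windows of 50 bases in no other annotated gene, against 99.2% for ZNF genes elsewhere. Only 4 members had under 80%. These were ZNF98 (52.5%) and ZNF492 (63.3%), which shared most windows with each other, ZNF814 (77.0%) and ZNF324B (77.5%), and their values are uncertain for that reason.

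The promoters of 4 members with a high or a low log2 fold change of chromatin over nucleoplasm are shown because they differ in CG content. They were picked for this contrast. ZNF90 (-2.61) and ZNF525 (-2.18) had lower log2 fold changes than ZNF787 (-1.90) and are not shown. Each line gives the 250 bases before the start site from RefSeq (GRCh38.p14), 5′ to 3′ on the gene's strand, with every CG in capitals. ZNF235 (chr19:44305026-44305275, minus strand) and ZNF460 (chr19:57279732-57279981, plus strand) were higher in chromatin. ZNF787 (chr19:56121296-56121545, minus strand) and ZNF428 (chr19:43619630-43619879, minus strand) were higher in nucleoplasm.
ZNF235: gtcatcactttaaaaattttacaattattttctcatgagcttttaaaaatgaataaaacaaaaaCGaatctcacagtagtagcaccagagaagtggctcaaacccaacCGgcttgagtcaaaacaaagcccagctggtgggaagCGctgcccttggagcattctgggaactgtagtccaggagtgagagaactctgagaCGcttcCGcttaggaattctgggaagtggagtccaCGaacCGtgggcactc
ZNF460: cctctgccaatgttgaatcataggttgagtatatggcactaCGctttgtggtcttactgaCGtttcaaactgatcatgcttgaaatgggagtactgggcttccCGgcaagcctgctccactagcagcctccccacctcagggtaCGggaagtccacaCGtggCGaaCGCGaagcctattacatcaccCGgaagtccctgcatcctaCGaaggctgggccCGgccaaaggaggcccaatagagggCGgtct
ZNF787: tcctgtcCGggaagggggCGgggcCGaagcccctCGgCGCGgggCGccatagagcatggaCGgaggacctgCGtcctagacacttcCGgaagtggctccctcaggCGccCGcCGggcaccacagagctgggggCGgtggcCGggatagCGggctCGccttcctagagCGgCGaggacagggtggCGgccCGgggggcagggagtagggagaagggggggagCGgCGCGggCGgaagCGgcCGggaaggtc
ZNF428: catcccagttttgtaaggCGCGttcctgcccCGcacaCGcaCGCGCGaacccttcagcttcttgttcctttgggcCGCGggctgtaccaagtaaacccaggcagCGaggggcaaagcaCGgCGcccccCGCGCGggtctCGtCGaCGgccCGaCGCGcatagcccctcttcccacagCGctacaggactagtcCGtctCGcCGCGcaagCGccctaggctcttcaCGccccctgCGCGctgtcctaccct

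The upstream 250 bases of ZNF235 held 7 CG and those of ZNF460 held 12, whereas ZNF787 had 27 and ZNF428 had 30. Of 19089 promoters of this length in the table, 69.7% had at least 7 CG, 59.8% at least 12, 21.5% at least 27 and 15.1% at least 30. A promoter was matched for 132 members, and their median was 16 CG, the same as over all promoters. These letters are a description of the sequence and were not tested against the RNA values. Over the 132 members, Spearman's rho between the GC content of these bases and the log2 fold change was -0.15.

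The first comparison asked in which nuclear fraction the RNA of these genes was more abundant. On the size-factor scale of the deposited counts, 88 of the 152 members were higher in chromatin and 26 were higher in nucleoplasm at an adjusted p under 0.05 (limma, Benjamini-Hochberg over all 26066 genes), and 38 did not pass. Over all tested genes the shares were 44.2% higher in chromatin and 45.2% higher in nucleoplasm. The median log2 fold change of chromatin over nucleoplasm was 0.45 in the members against -0.02 over all genes. With every library scaled to the same total of ERCC spike-in RNA, added in equal volume to both fractions, the member median turned to -0.87. That of all genes turned to -1.33, with 4 members higher in chromatin and 112 higher in nucleoplasm. On the size-factor scale the mean ERCC total was 105215 in chromatin and 42096 in nucleoplasm, a 2.50-fold difference. The authors report that the ERCC standards were found at equivalent levels in both fractions. The direction of the members as a group therefore depends on the scale. Their median stood 0.47 above that of all genes on the first scale and 0.46 above it on the second. Rescaling moves every gene by nearly the same amount, so the near-equal gaps are not separate evidence. The gap did change with the filter, to 0.17 with no filter and 0.71 at a mean count of at least 50.

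At a minimum of 4-fold, 3 members were called in chromatin and 3 in nucleoplasm, which is 1.97% each. The background over all tested genes was 21.2% for chromatin and 8.47% for nucleoplasm, and over the 12493 protein-coding genes it was 3.94% and 5.72%, also far below the 21.2% for chromatin. All 3 chromatin libraries lay above all 3 nucleoplasm libraries in 90 members (44.6% of all tested genes did so), and the reverse held in 29 (46.0% of all tested genes). The fractions overlapped in the other 33 members.

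ZNF genes on other chromosomes had nearly the same median but a wider spread. Their median was 0.42, with 7 of 192 called in chromatin and 1 in nucleoplasm, and the 2 groups' medians differed by 0.03. The spread of that difference between libraries was 0.04 (SD), so the medians were not told apart. The lower quartile was -0.28 elsewhere and 0.00 in the members, and 55 of 192 genes (28.6%) were higher in nucleoplasm at an adjusted p under 0.05, against 17.1% of the members. These shares were not tested against each other. Other protein-coding genes of chromosome 19 lay far lower: the 709 without a zinc finger name had a median of -1.04, with 14 called in chromatin and 103 in nucleoplasm. Over all 12493 protein-coding genes the median was -0.39. The members were also read less deeply than ZNF genes elsewhere, with a median mean count of 384 against 1191. In the 73 members with a mean count of 100 to 1000, the median was 0.42, against -0.44 in the 3229 protein-coding genes of that range. The 40 members above that range had a median of 0.58 against -0.47 in coding genes. In the 39 members with a mean under 100 the gap was far smaller, 0.32 against 0.20 in 1517 coding genes.

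**Figure D1:**
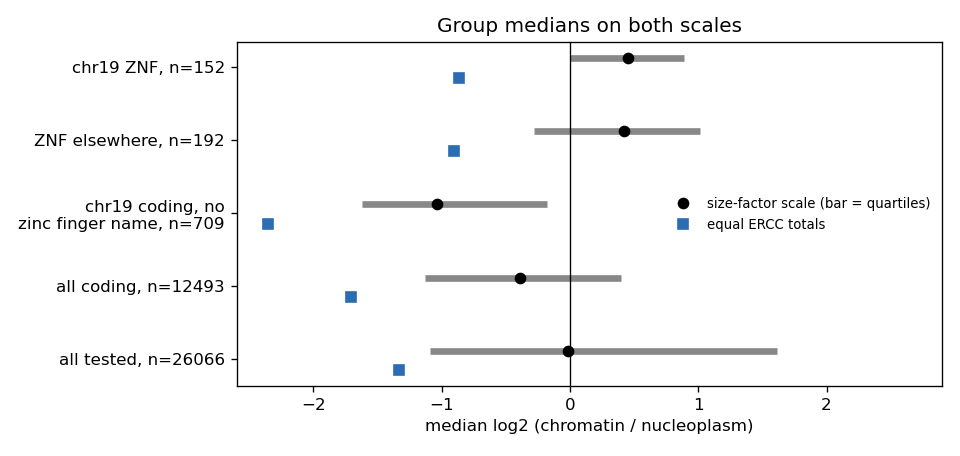
Median log2 fold change of chromatin over nucleoplasm (x axis) for 5 groups of tested genes (y axis, with their n), on the size-factor scale (black circles, grey bars from the lower to the upper quartile) and with equal ERCC totals (blue squares). Both ZNF groups sit near 0.45 and 0.42 on the first scale and near -0.87 and -0.90 on the second, above the other coding genes of chromosome 19 on both.

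ZNF235, ZNF460 and ZNF546 stood over 4-fold higher in chromatin. ZNF235 (chr19:44228729-44305046, minus strand, MSTRG.17219) had 932, 1169 and 946 normalized counts in the chromatin libraries and 189.6, 186 and 190.1 in the nucleoplasm libraries. Its log2 fold change was 2.42 ± 0.093 (SE, adjusted p = 3.8e-08, limma), and it stayed above 0 with equal ERCC totals (1.09). ZNF460 (chr19:57280051-57294069, plus strand) combined a high level with a large difference, at 6210, 6233 and 5645 in chromatin against 1308, 1302 and 1207 in nucleoplasm. Its log2 fold change was 2.24 ± 0.058 (SE, adjusted p = 1.07e-08, limma), and 0.92 with equal ERCC totals. ZNF546 (chr19:39984134-40021038, plus strand), which lies outside the arrays, was read far less, at 66.4, 104 and 73.5 against 13.2, 21.5 and 16.9. Its log2 fold change was 2.18 ± 0.234 (SE, adjusted p = 2.45e-05, limma), and without the second chromatin library it was no longer past 4-fold. None of the 3 overlapped between fractions.

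ZNF221, ZNF682 and ZNF577 came next. ZNF221 had 276 to 299 counts in chromatin and 74.6 to 94.7 in nucleoplasm (log2 fold change 1.79 ± 0.111, SE). ZNF682 had 348 to 365 and 101 to 119.7 (1.72 ± 0.093). ZNF577, whose locus also covers ZNF649, had 1255 to 1436 and 415 to 466 (1.67 ± 0.077). All 3 remained above 0 with equal ERCC totals, at 0.48, 0.41 and 0.35.

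At the other end, ZNF90 (chr19:20077994-20127076, plus strand, MSTRG.16761) had 314, 249.8 and 339 counts in chromatin against 1929, 1736 and 1819.8 in nucleoplasm. Its log2 fold change was -2.61 ± 0.109 (SE, adjusted p = 5.86e-08, limma). ZNF428 (chr19:43607224-43619629, minus strand) had 207, 168 and 178 against 957, 915 and 952 (-2.35 ± 0.085, SE, adjusted p = 3e-08, limma). ZNF525 (chr19:53365693-53392217, plus strand) had 74.5, 69.7 and 61.5 against 307, 304 and 330.3 (-2.18 ± 0.10, SE, adjusted p = 9.76e-08, limma). The fractions were fully separate in each. The assembled loci of ZNF90 and ZNF525 each hold an annotated processed pseudogene on the same strand, a retrotransposed mRNA copy, and that of ZNF525 overlaps the locus of ZNF765. Of the 145 members with no such pseudogene in their locus, 1 (ZNF428) was called in nucleoplasm. The part of the pseudogenes in these counts was not tested.

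ZNF787, ZNF444 and ZNF579 followed, with log2 fold changes of -1.90 ± 0.066, -1.49 ± 0.080 and -1.29 ± 0.057 (SE). ZNF787 had 345 to 395 counts in chromatin and 1364 to 1428 in nucleoplasm. All 3 genes lie in 1 array near the long-arm telomere.

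The most abundant members did not share a direction. ZNF146, which encodes a protein made almost only of zinc fingers, had 3716, 3731 and 3917 counts in chromatin and 7529.7, 7267 and 7293 in nucleoplasm (log2 fold change -0.96 ± 0.043, SE). ZNF254 had 7335, 7942 and 6886 against 2807, 2670.4 and 2527 (1.47 ± 0.065). ZNF91, a repressor of SVA and L1 retrotransposons, was closer to even at 4129.9, 4663 and 4422 against 3249, 3192 and 3054 (0.48 ± 0.056). ZNF765 (0.68), whose locus also overlaps ZNF761, and ZNF507 (0.40) were likewise higher in chromatin. ZNF91, ZNF765 and ZNF507 turned to -0.85, -0.64 and -0.92 with equal ERCC totals. The members nearest the median were ZNF230, ZNF160 and ZNF565, each at a log2 fold change of 0.45.

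**Figure D2:**
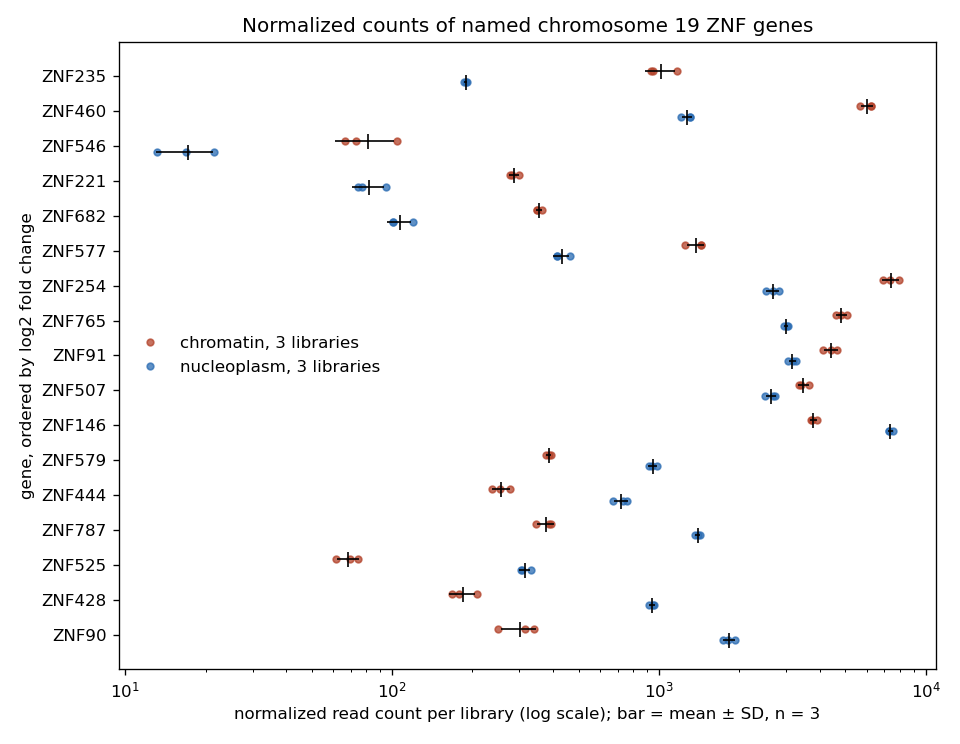
Normalized read count per library (x axis, log scale) of the members with the highest and lowest log2 fold change and the highest mean count (y axis, ordered by log2 fold change), in chromatin (red) and nucleoplasm (blue), with the mean ± SD of 3 libraries in black. The fractions are separate in every gene shown, with ZNF235 at 932 to 1169 against 186 to 190.1 and ZNF90 at 249.8 to 339 against 1736 to 1929.

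The members were then compared along the chromosome. Genes with no more than 500 kb between them and at least 5 annotated ZNF genes were taken as a cluster, which gave 10 clusters, numbered from the short-arm telomere, and 10 members outside them. Cluster medians ran from -0.41 to 0.77, a range of 1.18. It was 1.19 with equal ERCC totals, a scaling that moves every gene by nearly the same amount. No test was made between clusters, since the genes of a cluster are not replicates.

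Cluster 7 (43.5 to 44.5 Mb, 15 members) had the highest median at 0.77, with 14 of 15 members above 0 and 13 higher in chromatin at an adjusted p under 0.05. It holds ZNF235 and ZNF221 at the top and ZNF428 as its only member below 0. Cluster 6 (36.2 to 37.8 Mb, 22 members) had a median of 0.72 and ran from ZNF540 (1.61) to ZNF146 (-0.96). In clusters 5 (5 members) and 10 (25 members) the medians were 0.65 and 0.64. Cluster 5 ran from ZNF792 (1.18) to ZNF599 (-0.55), and cluster 10 from ZNF460 (2.24) to ZNF837 (-0.57).

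Cluster 2 (9 members) had a median of 0.51, between ZNF846 (0.98) and ZNF317 (-0.49). Cluster 8 (51.6 to 53.6 Mb, 21 members) had a median of 0.42, between ZNF577 (1.67) and ZNF525 (-2.18). Cluster 3 (9 members) had a median of 0.26, from ZNF441 (1.44) to ZNF627 (-0.30). Its median mean count was 28.2, the lowest of the clusters, and 5 of its 9 members did not pass the test. Cluster 4 (19.7 to 24.1 Mb, 22 members), the array of the shared window, had a median of 0.24. It contained both ZNF682 (1.72) and ZNF90 (-2.61), and 12 of its 22 members did not pass. Cluster 1 had 4 members and a median of -0.02, from ZNF555 (1.42) to ZNF57 (-0.43), and the ZNF57 libraries overlapped between fractions.

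Cluster 9 (55.5 to 56.7 Mb, 10 members) stood lowest, with a median of -0.41. In it 7 of 10 members were higher in nucleoplasm at an adjusted p under 0.05 and 2 were higher in chromatin. ZNF787, ZNF444 and ZNF579 lie here. ZNF583 was its highest member at 1.32, with 19.8, 13.2 and 22.0 counts in chromatin and 6.14, 6.89 and 6.76 in nucleoplasm, and it passed the filter through its chromatin libraries alone. The 6 protein-coding genes without a zinc finger name in the same interval had a median of -1.42. Such genes also had a median below 0 in cluster 7 (-0.34, 8 genes) and cluster 3 (-0.25, 5 genes), where the members' medians were above 0. In cluster 10 it was 0.81 (8 genes). The remaining clusters held fewer such genes.

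Direct neighbours within a cluster were hardly alike. Over 132 pairs of adjacent members, Pearson's r of the log2 fold changes was 0.10 and Spearman's rho 0.13, as a description of pairs that share genes.

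**Figure D3:**
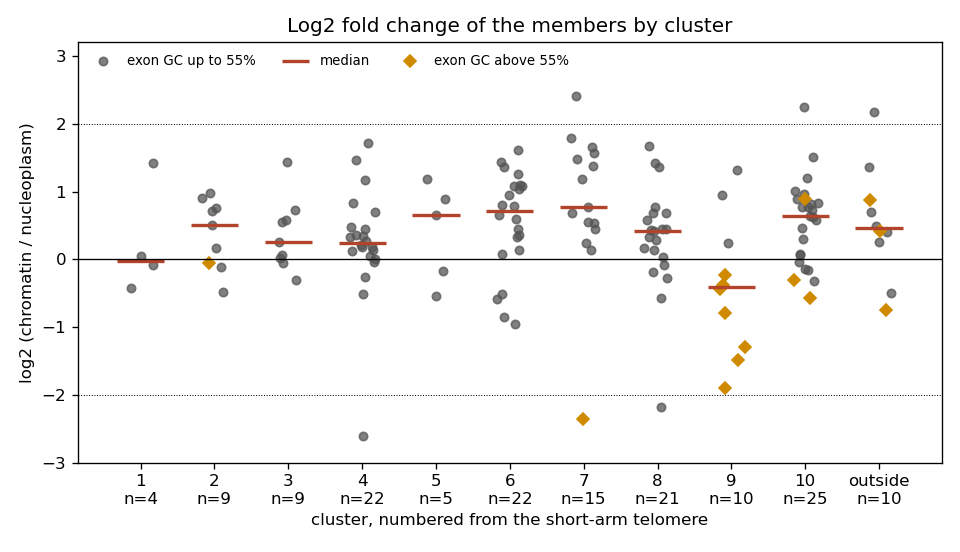
Log2 fold change of chromatin over nucleoplasm (y axis) of each member by cluster (x axis, with the number of members), with cluster medians as red lines, the 4-fold limits dotted and members with exon GC above 55% as orange diamonds. Cluster 9 has the lowest median (-0.41) and holds 7 of the 15 GC-rich members, and cluster 7 has the highest (0.77).

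Cluster 9 also differed in base composition, with a median exon GC content of 64.7%, against 38.7% in cluster 4. Over all members exon GC left a gap between 52.9% and 58.4%, and a limit of 55% in this gap was chosen after the values were seen. The 15 members above it had a median log2 fold change of -0.44, with 11 higher in nucleoplasm and 3 higher in chromatin (ZNF526, ZNF324 and ZNF541). The 137 members below it had a median of 0.49, with 15 higher in nucleoplasm and 85 in chromatin. These are 73.3% in nucleoplasm and 20.0% in chromatin above the limit, and 10.9% and 62.0% below it. Over all protein-coding genes the shares were 57.5% and 30.2%, and over chromosome 19 coding genes without a zinc finger name 73.3% and 16.8%. The GC-rich members thus lay nearer to other coding genes than the remaining members did. With equal ERCC totals the medians were -1.75 and -0.82, so both groups then lay below 0. Their order could hardly change, since this scaling moves every gene by nearly the same amount. All 7 members of cluster 9 with an exon GC above 55% were below 0 and the other 3 were above it. Of those 3, ZNF583 passed the filter through its chromatin libraries alone, and 1 other did not reach an adjusted p under 0.05. In the 8 GC-rich members of other places the median was -0.18, with 3 above 0.

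The same limit gave the same order in ZNF genes elsewhere, which had no part in choosing it. There 46 genes above 55% had a median of -0.45 and 146 below it a median of 0.64. GC-rich members also had a shorter median span (11865 against 28863 bases), a median of 3 exons against 5, and a median of 25 CG in the upstream 250 bases against 16. These properties move together, and which of them goes with the RNA values cannot be told apart here. Along the whole range Spearman's rho between exon GC and log2 fold change was only -0.15 over the members and -0.35 over ZNF genes elsewhere.

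**Figure D4:**
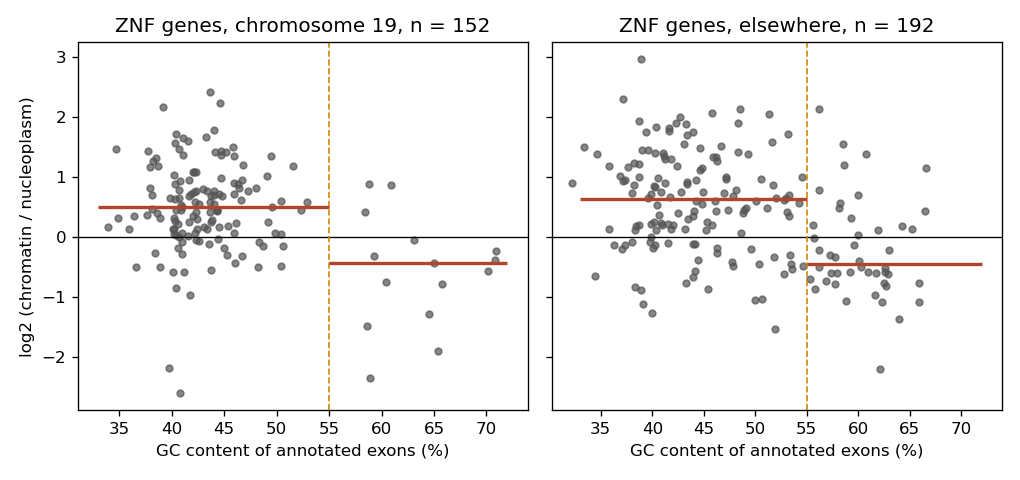
Log2 fold change of chromatin over nucleoplasm (y axis) against the GC content of annotated exons (x axis) for 152 ZNF genes on chromosome 19 (left) and 192 elsewhere (right), with the median on each side of 55% (dashed line) in red. The medians step from 0.49 to -0.44 on the left and from 0.64 to -0.45 on the right.

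Some loci inside the introns of members were themselves assembled on the same strand, clear of every annotated exon of the host. There were 29 such loci in 21 members, picked by position after the member values were known. In 9 of them every nucleoplasm library was under 10 counts and in 1 every chromatin library was, so these passed the filter through the fraction where they were high and had to differ. The other 19 reached 10 counts in at least 1 library of each fraction and ran from 0.54 to 4.72 on the log2 scale. Of these, 12 were called in chromatin, where 21.2% of all tested genes were. The locus in ZNF875 (2.31), 1 of the 12, and that in ZNF561 (1.84) reached 10 in a single nucleoplasm library, so their chromatin libraries carried them through the filter. ZNF235 held 3 of the 29 loci, and only the most abundant of these reached 10 counts in both fractions. It had 801, 884 and 694 counts in chromatin and 55.3, 33.6 and 32.1 in nucleoplasm (log2 fold change 4.30). The locus in ZNF507 had 966, 1337 and 947 against 42.1, 45.6 and 32.1 (4.72), where the host gene stood at 0.40. In ZNF345 the locus was the ribosomal protein pseudogene RPL31P61, at 1.16, 2.40 and 4.39 against 12.3, 12.9 and 14.4 (-2.05), and it passed the filter through nucleoplasm alone.

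**Figure D5:**
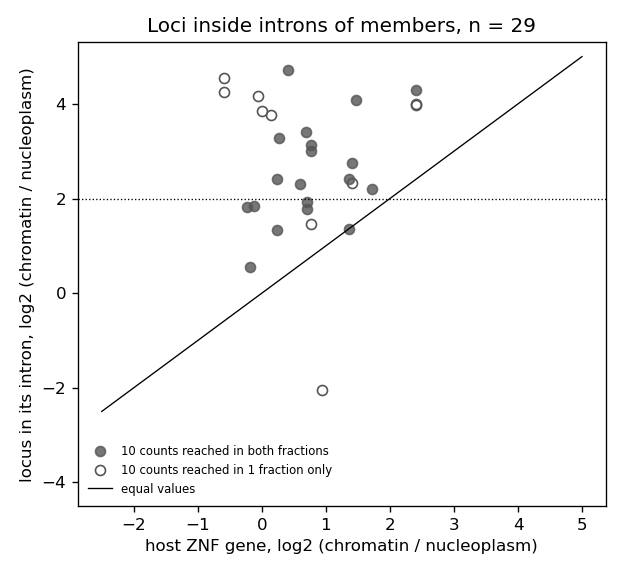
Log2 fold change of 29 loci inside introns (y axis) against that of their host ZNF gene (x axis), with the line of equal values and the 4-fold limit dotted. Filled circles are the 19 loci that reached 10 counts in at least 1 library of each fraction, up to 4.72 in ZNF507. Open circles are the 10 that did so in 1 fraction only.

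Antisense and divergent lncRNAs named after a chromosome 19 ZNF gene were 13. ZNF460-AS1 had 150.2, 159 and 136 counts in chromatin and 30.7, 24.1 and 30.4 in nucleoplasm (2.35), close to its partner ZNF460 (2.24). ZNF790-AS1 and ZNF114-AS1 were also called, in chromatin and in nucleoplasm, but each passed the filter only through the fraction where it was high. Other pairs were less alike. Of the 9 lncRNAs whose partner was a member, 7 had a higher log2 fold change than the partner, among them ZNF567-DT (1.87 against 0.14). The 7 also include ZNF790-AS1, which passed the filter through chromatin alone. ZNF529-AS1 (1.36 ± 0.12, SE, against 1.26), ZNF225-AS1 (0.75 ± 0.27 against 0.53) and ZNF460-AS1 lay above their partners by less than their own SE. ZNF114-AS1 was below its partner (-3.13 against -0.50).

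The genes of the KRAB corepressor pathway lay near the other coding genes. Of 32 listed genes 27 were tested, and 7 were higher in chromatin and 16 higher in nucleoplasm at an adjusted p under 0.05, with a median of -0.27. These are 25.9% and 59.3%, where 30.2% and 57.5% of all protein-coding genes passed. TRIM28, the corepressor bound by KRAB domains, had 6316, 5605 and 6108 counts in chromatin and 19820.2, 19611 and 20526 in nucleoplasm (log2 fold change -1.74 ± 0.055, SE). SETDB1 was also higher in nucleoplasm, by less, at -0.32 ± 0.049 (SE), with 2323 to 2500.4 counts in chromatin and 2933 to 3097 in nucleoplasm. CBX1, a heterochromatin protein 1 isoform, was the only list gene past 4-fold (-2.32). Of 23 zinc finger genes of chromosome 19 with other names 12 were tested, with a median of 0.37, 7 higher in chromatin and 2 higher in nucleoplasm. With equal ERCC totals the medians of these lists were -1.59 and -0.95.

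The long-read libraries give the chromatin RNA of the same genes as TPM per transcript, summed per gene. The authors state that such cDNA libraries lose the strand of origin and that transcripts can be assembled on the wrong strand. Whether the TPM values come from reads with a computed strand is not stated. Values of genes that overlap on opposite strands are therefore uncertain. Of the 152 members 110 were above 0 TPM in both libraries, 21 in a single library and 21 were listed at 0 in both. The share rose with the short-read level, from 8 of 39 members with a mean count under 100, through 64 of 73 between 100 and 1000, to 38 of 40 above. Of the ZNF genes elsewhere 178 of 192 were above 0 in both.

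Replicate agreement was loose at these levels. ZNF529 had 27.0 and 9.11 TPM in the long-read libraries, ZNF91 had 15.95 and 19.1, and ZNF146 had 21.6 and 12.4. ZNF460 was listed at 0 in the first and at 14.1 TPM in the second. Over the 110 genes the log2 ratio of the libraries had an SD of 1.10, and Spearman's rho was 0.76. Between the mean TPM and the short-read chromatin count per kb of transcript it was 0.70. ZNF428, with a mean of 184 short-read counts in chromatin, had 20.4 and 7.85 TPM. TPM holds no depth, so no interval is given.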

How the data were processed

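The short-read table holds gene counts that the authors estimated with StringTie from hisat2 (HISAT2 2.1.0) alignments to hg38 and scaled with size factors from DESeq2, which gives a normalized signal. Reads were recovered by dividing each library by its smallest value, and 100% of values came out whole within 0.01, but they stem from coverage and are estimates. The long-read table holds TPM per transcript, deposited by the authors from minimap2 and StringTie. Groups came from titles, because the characteristics name chromatin for all 8 libraries.

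Members were named as stated in the report. Assembled loci needed a span Jaccard index of at least 0.5, and tested loci a span over 200 bases. ZNF541 matched 2 loci, and the better match was kept. The other had a log2 fold change of 2.32 and would be a further call in chromatin. Fractions were compared by limma-trend (limma 3.58.1 under R 4.3.3), fitted without covariates to the log2 of each normalized count plus 1. Fold changes are on that scale, which understates those of low genes. A gene was called at an adjusted p under 0.05 and a log2 fold change above 2 or below -2. Among the alternatives, recovered reads were fitted by edgeR 4.0.16 and by DESeq2 1.42.0. The fits were tested on simulated data.

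Named genes were the 6 highest and 6 lowest members by log2 fold change, the 6 highest by mean count, the highest and lowest of each cluster, the 3 nearest the median, every called member, list genes past 4-fold, TRIM28 and SETDB1. ZNF genes outside this rule were named after their values were seen. Members and lists were chosen with earlier results of these data known. Values given as ± SE are standard errors of the limma fit and rest on the spread between libraries of a fraction. The replicate numbers were not used to pair the libraries in the main fit.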

Additional observations from a re-analysis of the deposited data

How the results depend on the processing

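Scaling moved the values most. With the same total in each library, the calls were 9 in chromatin and 1 in nucleoplasm, with a member median of 0.92. With the same ERCC total the limma calls were 0 in chromatin (4 members were still higher there at an adjusted p under 0.05) and 10 in nucleoplasm, the median reversed to -0.87, and 11 list genes were past 4-fold. Of 31 named members 8 reversed with the same ERCC total, namely ZNF765 (-0.64), ZNF91 (-0.85), ZNF507 (-0.92), ZNF846 (-0.30), ZNF792 (-0.14), ZNF160 (-0.87), ZNF230 (-0.87) and ZNF565 (-0.86). With the same total ZNF57 (0.048) and ZNF627 (0.17) reversed. The median was 0.48 with edgeR and 0.55 with DESeq2, a move larger than its spread between libraries (SD 0.03). A 2-fold minimum gave 30 chromatin and 6 nucleoplasm calls. The shares of all tested genes called at this minimum, with the same total or with the same ERCC total are not given here. These counts therefore show only how the calls move with the setting. Without loci that hold a processed pseudogene, chosen after seeing the data, 1 was called in nucleoplasm. With a cluster gap of 1000 kb the range of cluster medians was 0.79. Leaving out each library in turn gave 2 to 3 members called in chromatin, 3 in nucleoplasm, a median of 0.42 to 0.47 and a difference from ZNF genes elsewhere of -0.01 to 0.06. The GC limit gave medians of -0.27 at 50% and -0.50 at 60%. The cause of these moves was not tested.

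The replicate block gave the same 3 and 3 calls and a median of 0.45. Same-numbered libraries correlated weakly in their deviations, at 0.09, 0.05 and 0.06, but each correlated best with its own number. The authors made the libraries of both fractions from 3 independent cultures, so a pairing by culture is likely. The titles do not say whether same-numbered fractions shared a culture.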

Other observations

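The 62 annotated genes without a locus of their own include 49 that lie in a locus overlapping at least 2 ZNF genes, 10 of the 62 inside the locus of a member. Beside the members, 15 tested loci covered several ZNF genes at a time, with a median log2 fold change of 0.49, 13 above 0 and 2 called in chromatin by limma. The 2 below 0, at -1.52 and -0.56, were not past 4-fold. The locus MSTRG.16479 covers ZNF799, ZNF443, ZNF709, ZNF564 and ZNF490, and its log2 fold change of 0.24 cannot be divided among them. The locus over ZNF780A and ZNF780B and the locus over ZNF112, ZNF285 and ZNF229 were each at 2.32. The locus over ZNF580 and ZNF581, which lies in the GC-rich cluster 9, was at -1.52. At the filter, the members just inside it were ZNF728, ZNF93 and ZNF665, whose third-highest library had 10.3, 10.5 and 10.8 counts, and just outside were ZNF626 (9.61), ZNF563 (9.29) and ZNF257 (8.78).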
